A study of Mus musculus with 12 samples.

Results

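The genes described are 5 kallikreins, Klk1, Klk1b1, Klk1b21, Klk1b24 and Klk8, and Serpina1b, a serine protease inhibitor, in the oviducts of immature mice. They were chosen by the study's own list of changed genes on these same arrays, as every kallikrein with a probe set of its own in the part of that list held here plus Serpina1b, and make 6 of the 1820 listed genes whose rows could be found on all arrays, out of 18194 genes with a probe set of their own. Because the choice was made with results of these arrays, the values below are a description, and no p-value is given for them.

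Whole oviducts of C57BL/6 mice were measured on 12 Affymetrix Mouse Genome arrays of 45101 probe sets in 4 groups of 3. ESR1KO mice carried the deleted gene of the estrogen receptor ESR1 on both copies, with or without the Zp3Cre transgene, whose Cre is expressed in the oocyte and makes the deletion global in the offspring. WT mice were their siblings with 1 floxed and 1 deleted copy (ESR1flox/-), again with or without Zp3Cre, so every mouse carried at least 1 deleted copy. Both genotypes were taken untreated at 23 days of age, or were given 5 IU PMSG at 23 days and taken 48 h later. PMSG, pregnant mare serum gonadotropin, stimulates the ovarian follicles, which secrete estradiol. Since treated mice were also older than untreated ones, age and PMSG cannot be told apart. Each array held RNA pooled from 3 to 4 mice, and replicates used different mice. The deposited values are log2 expression signals, on which a step of 1 is 2-fold, and a group mean under 4 was taken as near background. Folds against such a group depend on the background correction. In whole tissue, fewer cells of a type and less RNA per cell cannot be told apart.

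Kallikreins are secreted serine proteases with trypsin-like or chymotrypsin-like specificity that are made as inactive precursors. Klk1, tissue kallikrein, releases kinins from kininogens, and in the mouse its gene has been duplicated into the Klk1b subfamily, known mainly from salivary gland, where members process growth factors. Serpina1b encodes a form of alpha-1-antitrypsin, a serpin that traps serine proteases such as neutrophil elastase and is best known as a secreted product of the liver.

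The RefSeq gene table places 26 protein-coding kallikrein genes in a single run on chromosome 7. Klk8 is the 7th gene of the run, Klk1b1 the 14th, Klk1b21 the 17th, Klk1b24 the 22nd and Klk1 the 26th, and Serpina1b lies on chromosome 12. The starts of Klk1 and of the 3 Klk1b genes are shown because these 4 genes had their highest signal in the same group. The sequences are RefSeq windows on GRCm38.p6, from 250 bases before to 50 bases after the annotated start, 5′ to 3′ on the plus strand: chr7:44225110-44225409 for Klk1, chr7:43966501-43966800 for Klk1b1, chr7:44102042-44102341 for Klk1b21 and chr7:44187986-44188285 for Klk1b24. Capitals mark TGACC or its reverse complement GGTCA, each an arm of the estrogen response element.
Klk1: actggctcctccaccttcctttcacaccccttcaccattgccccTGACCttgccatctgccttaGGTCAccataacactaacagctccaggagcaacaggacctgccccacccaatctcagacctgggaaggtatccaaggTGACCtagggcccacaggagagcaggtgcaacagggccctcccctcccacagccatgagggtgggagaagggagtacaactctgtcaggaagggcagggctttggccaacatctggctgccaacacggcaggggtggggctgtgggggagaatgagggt
Klk1b1: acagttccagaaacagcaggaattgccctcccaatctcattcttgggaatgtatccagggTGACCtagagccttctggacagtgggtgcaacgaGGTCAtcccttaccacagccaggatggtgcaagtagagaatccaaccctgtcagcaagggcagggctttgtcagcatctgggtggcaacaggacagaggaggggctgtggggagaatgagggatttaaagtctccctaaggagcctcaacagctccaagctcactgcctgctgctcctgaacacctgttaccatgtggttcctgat
Klk1b21: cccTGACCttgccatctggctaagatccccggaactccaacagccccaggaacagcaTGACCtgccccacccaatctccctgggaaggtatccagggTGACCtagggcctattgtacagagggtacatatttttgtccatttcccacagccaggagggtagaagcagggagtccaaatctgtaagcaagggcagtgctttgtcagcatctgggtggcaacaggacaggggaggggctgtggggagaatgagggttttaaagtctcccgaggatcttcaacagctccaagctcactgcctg
Klk1b24: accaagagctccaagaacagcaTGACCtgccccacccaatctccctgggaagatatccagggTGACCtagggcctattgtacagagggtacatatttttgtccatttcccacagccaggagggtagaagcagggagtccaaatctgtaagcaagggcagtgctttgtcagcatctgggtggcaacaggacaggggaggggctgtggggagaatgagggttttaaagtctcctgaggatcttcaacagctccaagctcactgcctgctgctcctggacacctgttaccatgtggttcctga
Over their best local alignment, Klk1b21 and Klk1b24 were identical at 98.1% of 264 aligned positions, with 1 unbroken run of 178 bases in common. Klk1b1 was identical to Klk1b24 at 83.3% of 300 positions. Klk1 was identical to the Klk1b genes at 77.7% to 79.0%. The same procedure gave 47.1% to 50.2% for pairs that included Klk8 or Serpina1b. The 4 windows shared a 10-base run that holds an arm, whose arm began at position -109 from the annotated start in Klk1, -190 in Klk1b1, -153 in Klk1b21 and -188 in Klk1b24. From that arm to a second shared run of 14 bases the distance was 144 bases in Klk1 and 142 in each Klk1b gene, so the annotated start of Klk1 lies upstream of the matching place in the others. Klk1b1, Klk1b21 and Klk1b24 also held TTTAAA just after the second run, a match sought after the sequences were seen and present in 13.2% of all 32851 windows.

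The arm TGACC, searched on both strands, occurred 3 times in the windows of Klk1 and Klk1b21, 2 times in those of Klk1b1 and Klk1b24, 1 time in that of Klk8 and not in that of Serpina1b. It is a common word, held by 40.5% of all windows of this length. The full estrogen response element (GGTCA and TGACC with any 3 bases between) was in none of the 6 windows and in 0.0700% of all. The element bound by androgen and glucocorticoid receptors (AGAACA and TGTTCT with any 3 bases between) was also in none of them and in 0.00913% of all, and TATAAA was in none and in 13.6% of all. GGGCGG was in the window of Klk8 alone of the 6 and in 35.7% of all. Such matches are letters in a window and not binding sites.

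Array medians ran from 5.63 to 5.75. Within groups the arrays correlated at r between 0.985 and 0.997 over all rows, apart from PMSG-treated WT replicate 3, which reached 0.969 and 0.974 with the other PMSG-treated WT arrays. This array had the lowest signal of its group for 6 of the 6 genes, and the group differences of the 6 genes that rest on it are given with and without it. Esr1, the deleted gene, was at 12.92 to 13.05 on the WT arrays and 12.2 to 12.8 on the PMSG-treated WT arrays. It was at 10.1 to 10.6 on the PMSG-treated ESR1KO arrays. Untreated ESR1KO arrays had 10.4, 12.1 and 11.1 for replicates 1, 2 and 3, so replicate 2 lay nearest to WT. Whether the Esr1 probes lie in the deleted part was not analysed here, and the differences of the 6 genes from untreated ESR1KO are also given without replicate 2. In untreated ESR1KO, 6 of 6 epithelial, 4 of 4 ciliated-cell and 4 of 4 smooth muscle markers were above background, and Ovgp1, the oviduct-specific glycoprotein, averaged 15.9 ± 0.04 (SD, n = 3). Above it too were 3 of 3 leukocyte, 2 of 2 mesothelial and 2 of 2 endothelial markers, 1 of 5 ovary markers (Inha, 8.04) and 1 of 2 fat markers (Fabp4, 6.29). Mast cell and blood markers were near background. The part of other cells or tissues in the results was not tested.

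The 6 genes fell into 3 patterns. Klk1 and Klk1b1 stood out in PMSG-treated WT alone. Klk1b21 and Klk1b24 were lowest in both ESR1KO groups, intermediate in WT and highest in PMSG-treated WT. Klk8 and Serpina1b ran the opposite way, highest in the ESR1KO groups and lowest in PMSG-treated WT. For Klk8, WT and PMSG-treated WT were both near background on average. All 5 genes with a called PMSG difference in WT were within 0.51 log2 units of no difference between the ESR1KO groups.

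**Figure D1:**
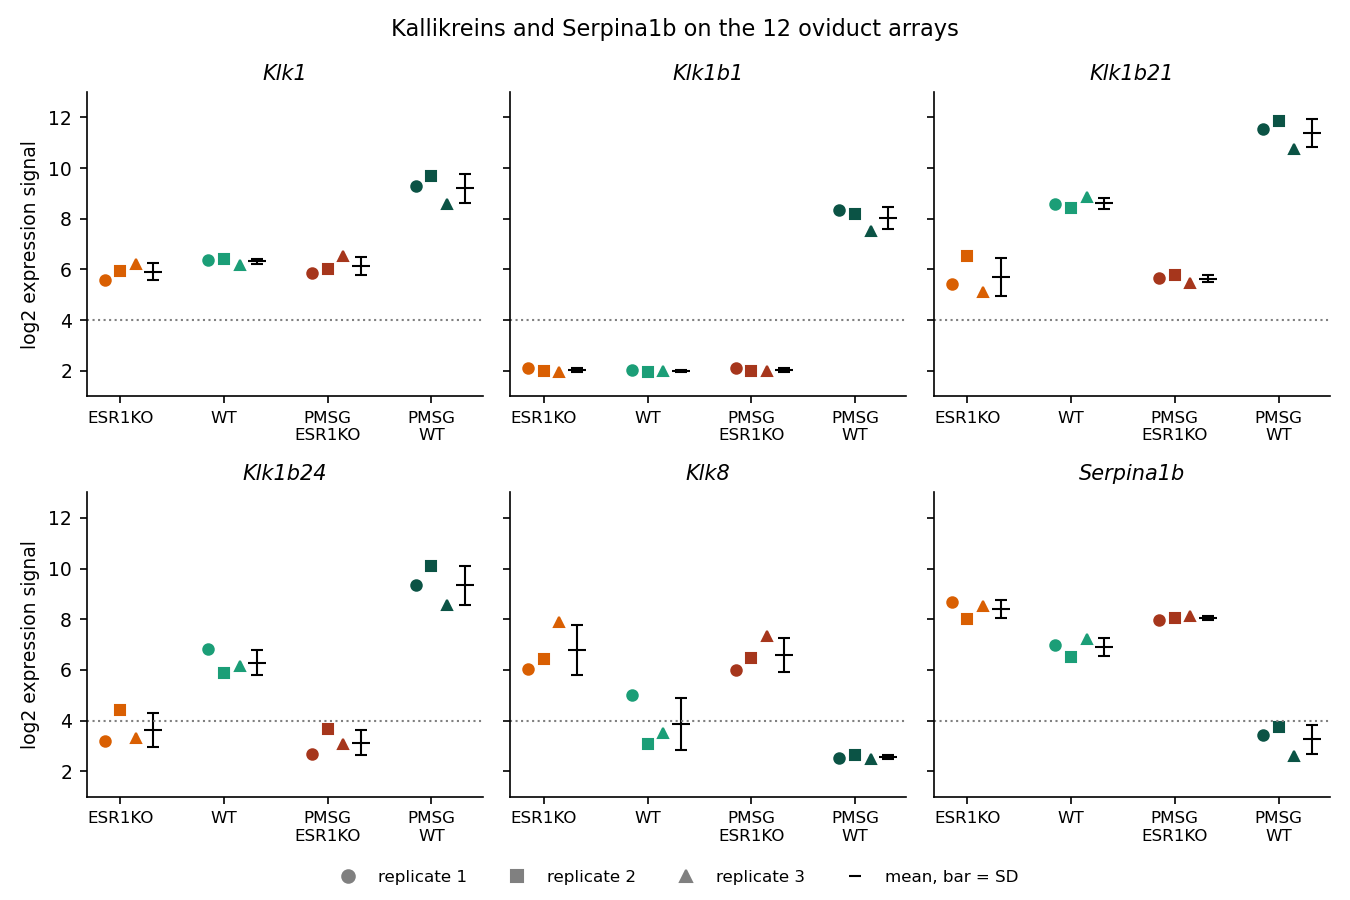
Log2 expression signal (y axis) of the 6 genes on each of the 12 arrays, by group (x axis), with the mean and SD of 3 arrays beside the points and a dotted line at 4, under which a group was taken as near background. Klk1b1 sits near 2 in 3 groups and between 7.52 and 8.34 in PMSG-treated WT, and Serpina1b is under 4 in PMSG-treated WT alone.

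Klk1, tissue kallikrein itself, had signals of 9.31, 9.70 and 8.59 on the PMSG-treated WT arrays. On the other 9 arrays it lay between 5.59 and 6.54. Every PMSG-treated WT array was thus above every other array, and the other 3 groups overlapped. Their means were 5.92 ± 0.32 in ESR1KO, 6.14 ± 0.35 in PMSG-treated ESR1KO and 6.32 ± 0.11 in WT (SD, n = 3 each), neighbours that did not differ beyond their spread, against 9.20 ± 0.56 (SD, n = 3) in PMSG-treated WT. The difference of PMSG-treated WT from WT was 2.88 ± 0.33 (SE, 7.37-fold). The difference of PMSG-treated ESR1KO from PMSG-treated WT was -3.05 ± 0.38 (SE, 8.30-fold). Without PMSG-treated WT replicate 3 these were 3.19 and -3.36. ESR1KO minus WT was -0.40, and -0.41 without ESR1KO replicate 2. The values come from 1 of 4 probe sets annotated to Klk1, of a type (suffix _x_at) whose probes can also match related transcripts, so near-identical kallikreins may contribute.

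Klk1b1, one of the duplicated genes, gave 8.34, 8.18 and 7.52 in PMSG-treated WT. Its signal was 1.96 to 2.13 on every other array. The group means outside PMSG-treated WT were 2.01 ± 0.04 in WT, 2.04 ± 0.09 in ESR1KO and 2.04 ± 0.06 in PMSG-treated ESR1KO (SD, n = 3 each), all near background and overlapping. Its difference of 6.00 ± 0.25 (SE) between PMSG-treated WT and WT was the highest of all 45101 rows in that comparison. On the signals as deposited this is 64.2-fold, and with every signal under 4 raised to 4 it is 16.2-fold. PMSG-treated ESR1KO minus PMSG-treated WT was -5.98. With PMSG-treated WT replicate 3 left out, these were 6.25 and -6.22. Between PMSG-treated ESR1KO and ESR1KO the difference was 0.00 ± 0.06 (SE), and without ESR1KO replicate 2 it was -0.01. ESR1KO minus WT was 0.03, and 0.04 without that array.

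Klk1b21 showed 3 levels. WT had 8.58, 8.41 and 8.85, and PMSG-treated WT 11.52, 11.85 and 10.76. The ESR1KO arrays had 5.43, 6.55 and 5.13, and the PMSG-treated ESR1KO arrays 5.67, 5.76 and 5.48. The ESR1KO groups overlapped with each other, whereas each step from them to WT and from WT to PMSG-treated WT was free of overlap. The step from ESR1KO to WT was -2.91 ± 0.45 as ESR1KO minus WT (SE, 7.52-fold), and -3.33 without ESR1KO replicate 2. The step from WT to PMSG-treated WT was 2.77 ± 0.35 (SE, 6.80-fold), and 3.08 without PMSG-treated WT replicate 3. PMSG-treated ESR1KO minus PMSG-treated WT was -5.74 ± 0.33 (SE, 53.6-fold), and -6.05 without replicate 3 of the latter.

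Klk1b24, the gene whose start is nearly the same as that of Klk1b21, had the same 3 levels. WT measured 6.83, 5.88 and 6.14, and PMSG-treated WT 9.34, 10.09 and 8.57. The ESR1KO arrays gave 3.19, 4.42 and 3.33, and the PMSG-treated ESR1KO arrays 2.67, 3.66 and 3.08, so that both ESR1KO groups averaged near background and overlapped. ESR1KO minus WT was -2.64 ± 0.48 (SE), and -3.02 without ESR1KO replicate 2. WT gained 3.05 ± 0.52 with PMSG (SE, 8.28-fold), and 3.43 without replicate 3 of PMSG-treated WT. The call of that gain was lost with any other WT, PMSG-treated WT or PMSG-treated ESR1KO array left out. PMSG-treated ESR1KO minus PMSG-treated WT was -6.19 ± 0.52 (SE, 73.2-fold as deposited), and 40.3-fold with signals under 4 raised to 4. It was -6.58 without PMSG-treated WT replicate 3.

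A further probe set, annotated to both Klk1b22 and Klk1b9 and therefore not counted as a gene, had 8.17, 7.80 and 8.40 in WT and 10.76, 10.99 and 10.21 in PMSG-treated WT. In ESR1KO it gave 5.21, 6.74 and 6.01, and in PMSG-treated ESR1KO 4.81, 6.92 and 7.05. Its groups were ordered as those of Klk1b21 and Klk1b24, with the ESR1KO groups overlapping. Since paralogs of this family are close in sequence, signal attributed to one of them may include another.

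Klk8, also called neuropsin and known from brain and skin, had its highest signals without ESR1. They were 6.05, 6.42 and 7.89 in ESR1KO and 6.00, 6.46 and 7.34 in PMSG-treated ESR1KO, groups that overlapped. WT had 5.01, 3.06 and 3.50, and PMSG-treated WT 2.55, 2.65 and 2.49, both near background on average. ESR1KO minus WT was 2.93 ± 0.82 (SE), and 3.11 without ESR1KO replicate 2. PMSG-treated ESR1KO minus PMSG-treated WT was 4.04 ± 0.40 (SE, 16.4-fold as deposited and 6.06-fold with signals under 4 raised to 4). PMSG-treated WT minus WT was -1.30 ± 0.59 (SE) and was not called, although these groups did not overlap, and it was -0.72 without WT replicate 1. With signals under 4 raised to 4 it was -0.34 (1.26-fold), so most of this step lay under the background limit. Leaving out replicate 3 of PMSG-treated WT moved the difference between the PMSG-treated genotypes to 4.00 and that of PMSG-treated WT from WT to -1.26. The call of ESR1KO against WT was kept only without WT replicate 1 or PMSG-treated WT replicate 3, of the 12 arrays left out in turn.

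Serpina1b followed the same order as Klk8 at its own levels. Its signals were 8.69, 8.02 and 8.54 in ESR1KO and 7.95, 8.06 and 8.14 in PMSG-treated ESR1KO. WT had 6.99, 6.50 and 7.21, below every ESR1KO array, and PMSG-treated WT had 3.45, 3.73 and 2.62. It was the only one of the 6 genes that was well above background in WT and near background after PMSG. The fall of 3.63 ± 0.39 from WT to PMSG-treated WT (SE, 12.4-fold as deposited and 7.47-fold with signals under 4 raised to 4) was the 3rd lowest difference of all 45101 rows, and it was -3.31 without PMSG-treated WT replicate 3. PMSG-treated ESR1KO minus PMSG-treated WT was 4.78 ± 0.34 (SE, 27.6-fold as deposited), and 4.46 without that array. ESR1KO minus WT was 1.52 ± 0.29 (SE), not called, and 1.71 without ESR1KO replicate 2. The values come from 1 of 2 probe sets annotated to Serpina1b alone, also of the _x_at type, so related transcripts may contribute.

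A pairwise difference counted as called where limma, adjusting over all 45101 probe sets, gave an adjusted p under 0.05 with a change of 2-fold or more. For PMSG-treated ESR1KO against PMSG-treated WT 6 of the 6 genes were called, where 4.48% of all rows and 48.5% of the 1820 listed genes were. For PMSG-treated WT against WT 5 of 6 were called (not Klk8), against 0.251% of all rows and 3.68% of the listed genes. Comparisons with untreated ESR1KO have only the share of the listed genes beside them, because of the row order. For ESR1KO against WT 3 were called (Klk1b21, Klk1b24 and Klk8), against 17.5% of the 1820 listed genes. For PMSG-treated ESR1KO against ESR1KO 0 were called, against 0.110% of the listed genes. Of the 6 genes 0 reached an unadjusted p under 0.05 there, a limit at which the share of the listed genes was not computed. Every one of these contrasts belongs to the model that chose the genes, so nothing is read from these counts, and the first and second comparisons share the PMSG-treated WT arrays.

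**Figure D2:**
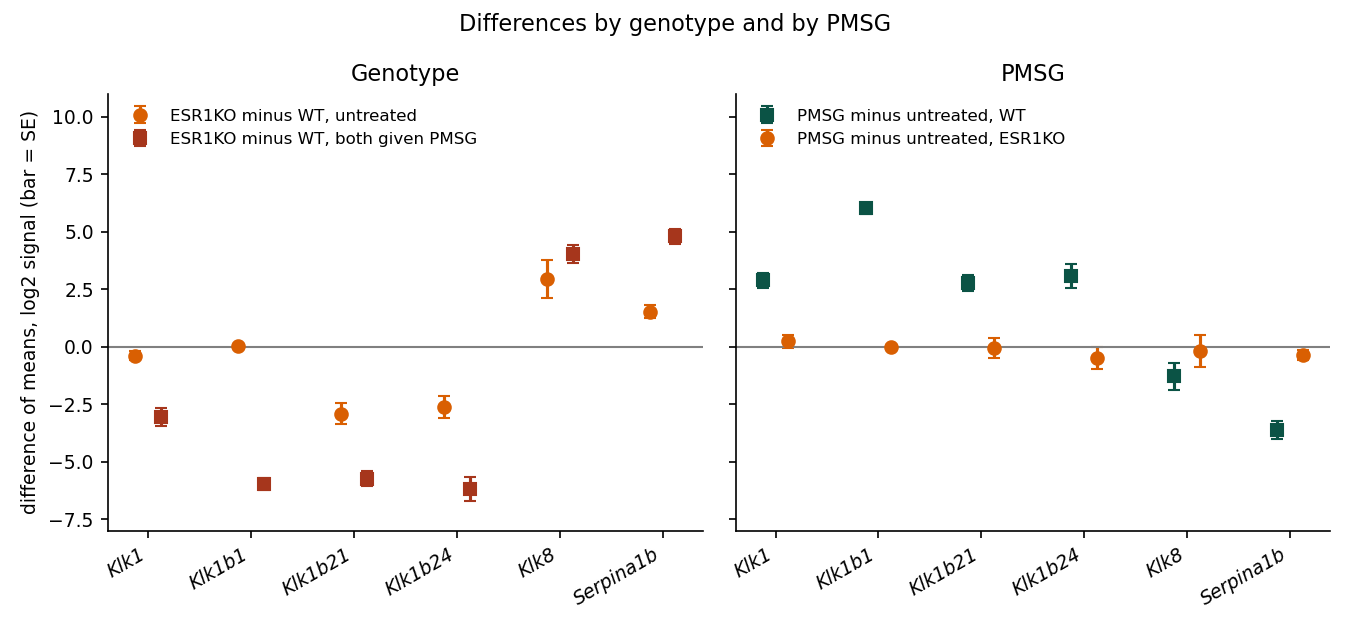
Differences of group means in log2 signal (y axis, bars are the SE from 3 arrays per group) for the 6 genes (x axis), by genotype on the left and by PMSG on the right. By PMSG the WT differences run from -3.63 to 6.00, and the ESR1KO differences from -0.51 to 0.22.

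The response to PMSG differed between the genotypes by a log2 difference of -6.00 ± 0.26 for Klk1b1 (ESR1KO response minus WT response, SE). For Klk1b24 it was -3.55 ± 0.71, for Klk1b21 -2.83 ± 0.56 and for Klk1 -2.66 ± 0.43. These 4 genes responded in WT and had responses between -0.51 and 0.22 in ESR1KO. For Serpina1b it was 3.27 ± 0.45 and for Klk8 1.11 ± 0.91, or 2.54 and 0.15 with signals under 4 raised to 4. Without ESR1KO replicate 2 these values were -6.01 for Klk1b1, -3.17 for Klk1b24, -2.41 for Klk1b21, -2.64 for Klk1, 3.07 for Serpina1b and 0.93 for Klk8, and the response in ESR1KO ran from -0.56 (Serpina1b) to 0.36 (Klk1b21). Without PMSG-treated WT replicate 3 they were -6.25, -3.94, -3.14, -2.96, 2.95 and 1.07 in the same order. The interaction term was called for Klk1b1 alone of the 6 at an adjusted p under 0.05 (limma), against 0.385% of the listed genes. Without PMSG-treated WT replicate 3 it was called for 4 (Klk1, Klk1b1, Klk1b21 and Serpina1b).

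Across the 12 arrays the signals of Klk1b21 and Klk1b24 correlated at r = 0.990, and those of Klk1 and Klk1b1 at r = 0.975. Serpina1b against the 4 genes Klk1, Klk1b1, Klk1b21 and Klk1b24 gave -0.939 to -0.924. These are descriptions without a p, since the arrays form 4 separate groups and r follows the group means. After the group means were subtracted, Klk1b21 and Klk1b24 still gave r = 0.787, whereas Serpina1b gave 0.202 to 0.707 against the 4 genes, of the opposite sign to the correlation across groups. Without PMSG-treated WT replicate 3, Klk1b21 and Klk1b24 gave 0.697 on these deviations, and Serpina1b gave -0.342 to 0.083 against the 4 genes, so the sign within groups rested on that array, a check chosen after the values were seen. Across the remaining 11 arrays Klk1b21 and Klk1b24 still correlated at r = 0.989. ESR1KO replicate 2 was the highest of its group for both genes, at 6.55 and 4.42. How far their r on the deviations rested on it was not tested. Klk1 and Klk1b1 gave 0.509 on the deviations of all 12 arrays and -0.770 without PMSG-treated WT replicate 3. Their sign within groups thus rested on that array too.

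**Figure D3:**
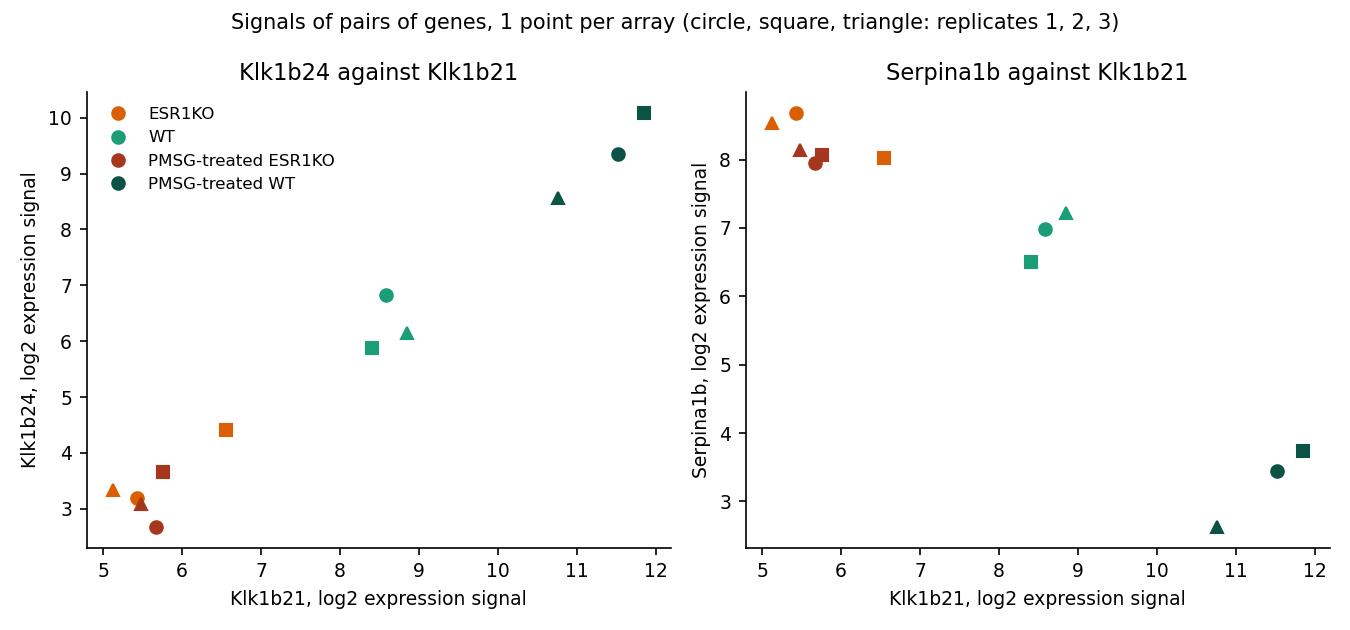
Log2 expression signals of Klk1b24 (left, y axis) and Serpina1b (right, y axis) against Klk1b21 (x axis), 1 point per array, coloured by group. Klk1b24 is higher where Klk1b21 is higher over all 12 arrays (r = 0.990), untreated ESR1KO replicate 2 is highest of its group on both, and Serpina1b is lowest in the group where Klk1b21 is highest.

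The 5 listed genes outside the kallikreins whose signals over the 12 arrays were most like each of the 6 were found by Pearson's r. For Klk1 they were Adam9, a membrane metalloprotease (r = 0.984), Lgr6, a receptor for R-spondins, Nptx1, Cox7a1 and Col25a1. For Klk1b1 they were Kcnma1, a potassium channel (r = 0.980), Lgr6, Pak3, Col25a1 and Nptx1, so 3 of the 5 were shared with Klk1. For Klk1b21 they were Fabp5, a fatty acid-binding protein (r = 0.988), Fzd5, Fam57a, Rasd1 and Aqp5, a water channel. For Klk1b24 they were Fam57a (r = 0.984), Bdh1, Padi1, Hp, which encodes haptoglobin, and Rasd1, with 2 shared with Klk1b21. For Klk8 they were Asb7 (r = 0.984), Cdc14b, Prodh, Chrnb1 and Mgat3. For Serpina1b they were Fgf18, a fibroblast growth factor (r = 0.987), D430041D05Rik, Igf2, Lgi1 and Il17rb. Fgf18 was also alike in level, with means of 9.16 in ESR1KO, 8.93 in PMSG-treated ESR1KO, 6.96 in WT and 3.68 in PMSG-treated WT. Pearson's r ignores the size of a change, and other named genes changed far less than the gene they resemble. Adam9 averaged 11.2 in WT and 11.8 in PMSG-treated WT, and Asb7 averaged 10.1 in ESR1KO and 9.63 in PMSG-treated WT. By Spearman's correlation 0 or 1 of the 5 names stayed the same for each gene, so the order among close genes is not settled.

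Apart from the probe set of Klk1b22 and Klk1b9, whose row was located in the same way, the rest of the kallikrein family could be named only in untreated ESR1KO, whose columns follow the probe set names. There 20 kallikrein genes, the pseudogene Klk1b7-ps included, had a probe set of their own, and for 15 of them every such probe set was near background. The 5 with one above it were Klk1, Klk1b21, Klk8, Klk11 and, on replicate 3 alone, Klk10, which had 3.51, 3.51 and 5.30. Klk11 had 8.88, 9.56 and 9.77. Of the 4 probe sets of Klk1, the one used here averaged 5.92, and the others 5.83, 5.19 and 2.13, so 1 of them was near background where 3 were not. Klk1b24, Klk1b27 and Klk1b8 lay just under the limit at 3.64, 3.92 and 3.79. Klk4, Klk5, Klk6, Klk7, Klk9, Klk12 and Klk13, in the part of the cluster around Klk8, averaged 2.01 to 2.72. Klk11 and Klk10, the 4th and 5th genes of the run, lie in that part too and averaged 9.40 and 4.11.

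For the Serpina1 genes, the second probe set of Serpina1b gave 8.25, 7.55 and 8.78 in untreated ESR1KO, close to the first. Serpina1c gave 8.94, 8.80 and 9.22. Probe sets annotated to several Serpina1 genes were near background, at 2.08 for the one shared by Serpina1b, Serpina1c and Serpina1e and at 3.05 for the one shared by Serpina1a and Serpina1d. Probe sets that name the same gene thus disagreed, and which Serpina1 gene gave the signal is uncertain. The liver markers Alb, Apoa1, Apoa2, Ttr, Fgb and Ahsg averaged 1.89 to 2.42 in the same arrays, 6 of 6 near background. Of the salivary gland and pancreas markers 6 of 7 were near background, the exception being Amy1, at 9.73.

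**Figure D4:**
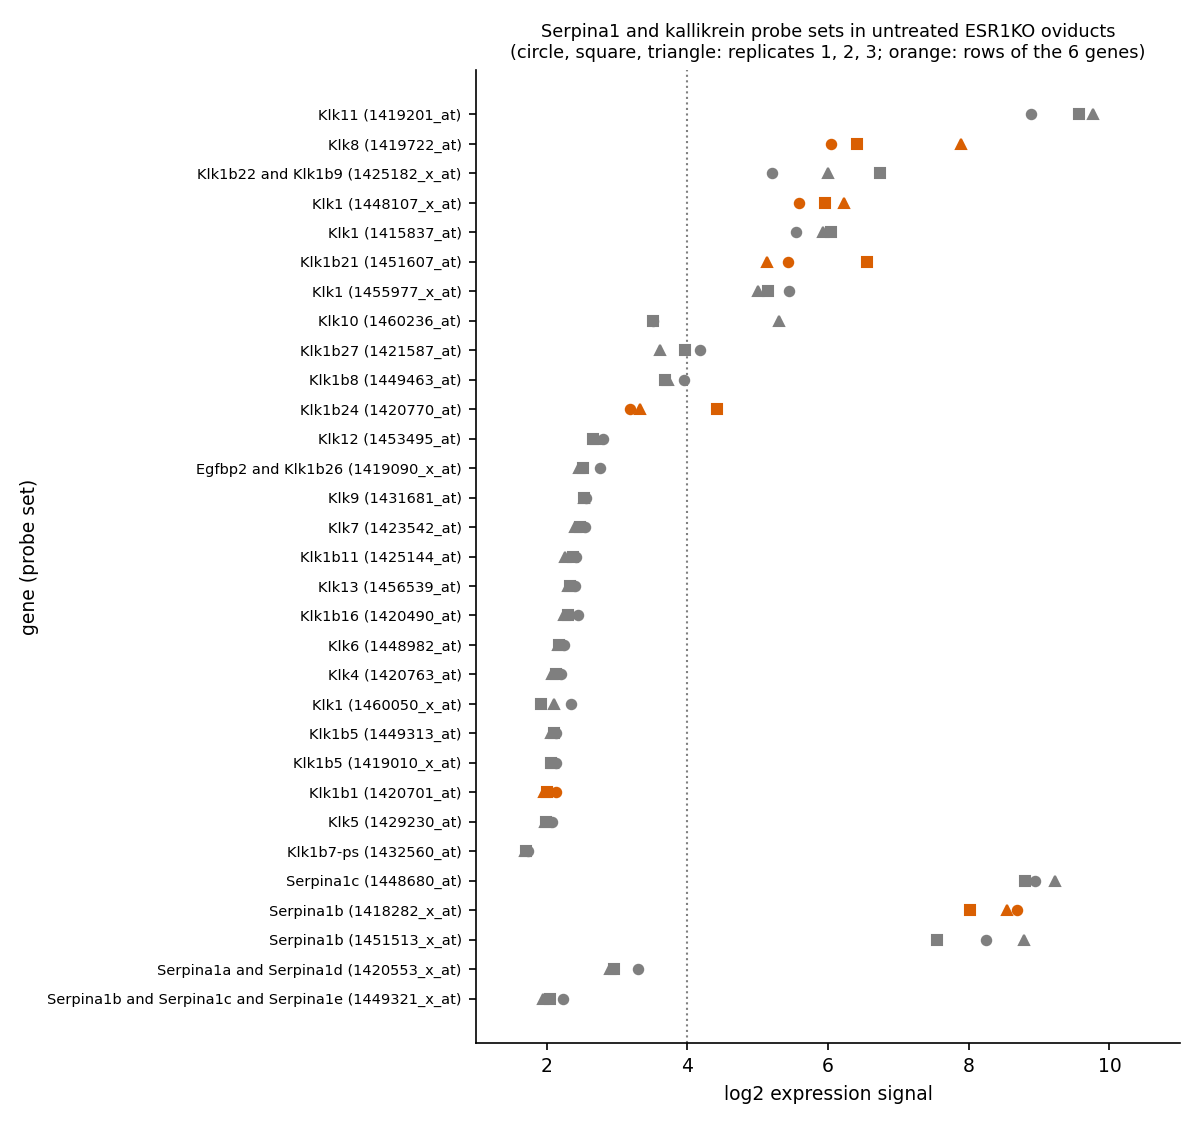
Log2 expression signal (x axis) of every kallikrein and Serpina1 probe set (y axis) on the 3 untreated ESR1KO arrays, with the rows of the 6 genes in orange and a dotted line at 4. Most kallikrein probe sets lie near 2, while Klk11 lies between 8.88 and 9.77 and Serpina1c between 8.80 and 9.22.

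The part of the study's list held here ends at Slc27a2 in alphabetical order, so genes with later symbols could not be found on all arrays whether or not they changed. All 39 serpins other than Serpina1b sort before that end. In the comparison of the PMSG-treated genotypes 48.5% of the 1820 listed genes were called, 517 higher in ESR1KO and 365 lower, with a median difference of 0.36, against which the counts of listed genes stand and from which nothing is read about them.

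Beyond Serpina1b, 6 of 39 serpins on the array were listed and found on all 12 arrays. Between the PMSG-treated genotypes, 2 were called higher in ESR1KO, 2 lower and 2 not, with a median difference of 0.04 against 0.36 over the listed genes and 0.01 over all rows. Serpinb11 gave a difference of -5.09 ± 0.28 (SE), with signals of 6.01 to 6.46 in PMSG-treated ESR1KO against 10.88 to 11.75 in the WT given PMSG. Serpina9 gave -3.26 ± 0.27 (SE). Leaving out PMSG-treated WT replicate 3 gave -5.32 and -3.50. In this comparison both thus ran with the Klk1b genes and opposite to Serpina1b. Both were also called lower in ESR1KO than in WT, as Klk1b21 and Klk1b24 were but Klk1b1 was not. Those differences were -3.27 for Serpinb11 and -2.07 for Serpina9, or -3.77 and -2.31 without ESR1KO replicate 2. From WT to PMSG-treated WT, Serpinb11 was higher by 0.96 ± 0.30 and Serpina9 by 1.65 ± 0.42 (SE), neither called. Without PMSG-treated WT replicate 3 these were 1.18 and 1.89. Serping1, the C1 inhibitor, also blocks plasma kallikrein. In PMSG-treated ESR1KO it was higher than in PMSG-treated WT by 1.45 ± 0.16, and Serpinf1 by 1.14 ± 0.17 (SE). Serpinb6b was the 1 of the 6 called between PMSG-treated WT and WT, where it was higher by 1.43 ± 0.22 (SE), and by 1.25 without PMSG-treated WT replicate 3, against 3.68% of the listed genes called. Serpinb9 was called in neither, and between PMSG-treated ESR1KO and PMSG-treated WT it differed by 0.62 ± 0.10 (SE).

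**Figure D5:**
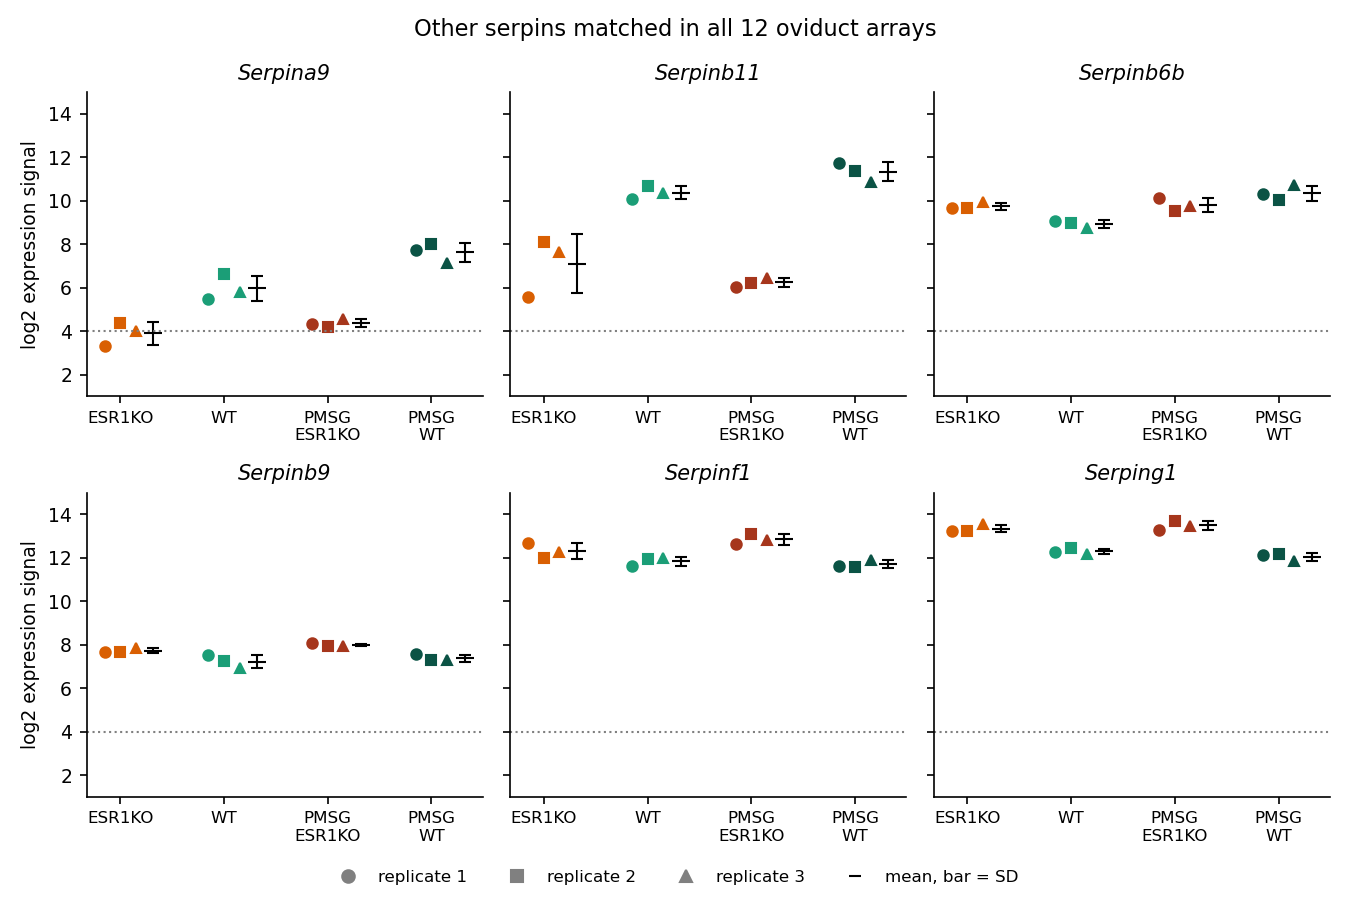
Log2 expression signal (y axis) of the 6 other serpins on each of the 12 arrays by group (x axis), drawn as for the 6 genes above. Serpinb11 and Serpina9 are highest in PMSG-treated WT (10.88 to 11.75 and 7.14 to 7.99), and Serping1 is highest in the ESR1KO groups.

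Of 12 genes of the kinin system, which carries the products of Klk1, 11 had a probe set, of which 10 sort within the held part of the list and 2 were listed. Both were called higher in ESR1KO after PMSG, with a median difference of 3.46 against 0.36 over the listed genes and 0.01 over all rows. Cpm, a carboxypeptidase that trims kinins, was higher by 3.42 ± 0.40 (SE), and Dpp4, a dipeptidyl peptidase, by 3.49 ± 0.75. Leaving out PMSG-treated WT replicate 3 gave 3.05 and 2.78. Cpm was also higher in ESR1KO than in WT, by 1.87 ± 0.20 (SE), and by 1.95 without ESR1KO replicate 2. Of the 16 known targets of such proteases 13 had a probe set, 12 sort within the held part and 7 were listed, and 3 were called higher and 1 lower in ESR1KO after PMSG, with a median of 0.86 over the 7. The 3 were Mmp9, a gelatinase (1.49 ± 0.29), Igfbp3, a carrier of insulin-like growth factors (1.45 ± 0.42), and F2r, a thrombin receptor (1.31 ± 0.22, all SE). The 1 was Fn1, fibronectin, at -2.71 ± 0.14 (SE). With that array left out, they were 1.23 for Mmp9, 1.07 for Igfbp3, 1.49 for F2r and -2.78 for Fn1. Of 38 other trypsin-like proteases 33 had a probe set and 25 of these sort within the held part. The 3 listed were all called higher, C1ra (1.85 ± 0.18), Plat, tissue plasminogen activator (1.71 ± 0.31), and C1s (1.54 ± 0.22, SE), or 1.77, 1.42 and 1.34 without that array. Of 20 other serine protease inhibitors 19 had a probe set, but only 6 of them sort within the held part, of which 0 were listed, so the change of the rest was not analysed here. These genes too were chosen by the study on these arrays, so their counts are not independent evidence of a direction.

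Of the steroid receptors 6 of 7 had a probe set and sort within the held part, and 3 were listed. Pgr, the progesterone receptor, was called in the same comparison, like Esr1, with a difference of -2.11 ± 0.25 (SE), or -2.34 without PMSG-treated WT replicate 3. Nr3c1, the glucocorticoid receptor, differed by 0.87 ± 0.10 (SE) in the other direction and was not called. Of the marker lists, Pecam1 of endothelium and Alas2 of red cell precursors were the only genes found on all arrays. Pecam1 ranged from 4.06 to 6.35 in ESR1KO, from 6.14 to 6.99 in PMSG-treated ESR1KO, from 7.88 to 8.54 in WT and from 7.44 to 8.24 in PMSG-treated WT. It was thus lower in ESR1KO than in WT, as Klk1b21 was, but not by the same course. ESR1KO minus WT was -3.24 untreated and -1.26 after PMSG for Pecam1, whereas it was -2.91 and -5.74 for Klk1b21. For Pecam1 these were -3.96 without ESR1KO replicate 2 and -1.38 without PMSG-treated WT replicate 3. Alas2 averaged near background in 4 of 4 groups, with its highest mean, 3.86, in PMSG-treated WT. The part of either in the results was not tested.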

How the data were processed

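Oviductal RNA was measured on 12 single-colour arrays. The authors imported the array intensities into Partek 6.6 and corrected background by GC-RMA, then normalized by quantiles and summarized probes by median polish, and they deposited log2 values without detection calls. Their own fold changes and p-values were not used as results.

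The 3 untreated ESR1KO columns are in the order of the probe set names. The remaining 9 have a different order, common to them. Each gene was located through the study's list of changed genes, whose printed folds served only as a row key, so located folds equal the printed ones by construction. Of 1997 list rows held here, 1914 had 1 symbol and 1820 were matched, within 7.54e-05 log2 units in the 9 columns. For the 6 genes the next nearest row was at least 0.0255 away. The matching was tested on a simulated table of 20000 rows, where 500 of 500 rows sought were found. That table had fewer rows than the 45101 here, and its group differences had the same spread in every row. It therefore gives no success rate for the real table. The annotation gave 34958 probe sets 1 symbol, 932 several and 9211 none.

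The cap of 9 kallikreins was not reached. The genes and lists were chosen with earlier results of these data known. The named genes were the 6, the other listed kallikrein or serpin rows, the 5 genes most like each by Pearson's r, called list genes (at most 6 a list) and Esr1. Differences are of group means with SE from the group SDs. Calls come from limma 3.58.1 under R 4.3.3, with linear models moderated along a variance trend and Benjamini-Hochberg adjustment. Comparisons with untreated ESR1KO were fitted on the 1820 matched rows, borrowing the prior of the fit on 9 arrays, and were adjusted for 45101 tests. That adjustment by itself can only make the adjusted p too large. The borrowed prior came from a fit without untreated ESR1KO, and its effect on these p-values was not tested. This differs from the single 12-array fit first planned, because of the row order. Settings tried instead were the methods' unmoderated two-way model, a fit with no variance trend, a mean signal of at least 4 and signals under 4 raised to 4. Repeated quantile normalization, equal array medians, a replicate block, no fold minimum and the 6 arrays of the comparison alone were also tried. So were each array left out, a search of the untreated ESR1KO rows over all probe sets and Spearman's correlation. Promoter windows were aligned with Biopython 1.88. The number of arrays limits the precision.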

Additional observations from a re-analysis of the deposited data

Results flagged for a closer look

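By the interaction term, the PMSG responses of Klk1b1 in the genotypes were -6.00 log2 units apart (ESR1KO response minus WT response). The gene was chosen with the same model on these arrays, so the value is a description and not an independent test. Its signal stayed at 1.96 to 2.13 on the 9 arrays outside PMSG-treated WT, and all of the response lies on the 3 PMSG-treated WT arrays. With 3 arrays per group, single arrays were not screened as outliers.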

How the results depend on the processing

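For PMSG-treated ESR1KO against PMSG-treated WT, 6 genes were called under every alternative run. For PMSG-treated WT against WT, the 5 became 1 (Klk1b1) in the unmoderated two-way model and 3 (Klk1b1, Klk1b21 and Serpina1b) with the replicate block, and 4 to 5 with an array left out. Klk1b24 also lost its call there with no variance trend, signals raised to 4, repeated quantile normalization, the 6 arrays alone, and with any array but PMSG-treated WT replicate 3 removed. For ESR1KO against WT, the 3 became 1 (Klk1b21) in the unmoderated model and with only the 6 arrays compared, and 1 to 4 with an array left out (1, Klk1b21, without ESR1KO replicate 1 or 3 or WT replicate 2 or 3, and 4 without PMSG-treated WT replicate 3). There 2 (Klk1b21 and Klk1b24) were called with no variance trend, the replicate block or repeated quantile normalization, 2 (Klk1b21 and Serpina1b) with signals raised to 4, 4 (Serpina1b added) under the filter on mean signal, and 3 (Klk1b21, Klk1b24 and Serpina1b) without PMSG-treated WT replicate 2. For the interaction, the 1 became 0 with a mean signal of at least 4, a filter that removes Klk1b1, and 1 to 4 with an array left out. For PMSG-treated ESR1KO against ESR1KO it was 0 throughout. Same-numbered arrays had correlated deviations of -0.124 to 0.356, and the labels tie no replicate number to a shared source, so the numbers were not taken as pairs. The cause of each lost call was not tested.

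Of 306 recomputed differences of single genes 0 changed sign among those called, 295 moved by less than the spread between replicates and 11 by more, 10 of them with signals under 4 raised to 4, which shortens differences against near-background groups by construction. Between the PMSG-treated genotypes, calls over all rows fell from 2022 to 1255 in the unmoderated model and 1313 with 6 arrays. They fell to 1248 without PMSG-treated ESR1KO replicate 3 and rose to 3065 with no fold minimum. For PMSG-treated WT against WT the 113 calls over all rows ranged from 19 (unmoderated) to 346 (without PMSG-treated WT replicate 3). ESR1KO against WT was tested over the 1820 listed genes only. There the 318 calls ranged from 78 (without WT replicate 2) to 450 (without PMSG-treated WT replicate 3). The 5 genes most like each gene kept 2 to 5 names with an array left out. Another row key placed 6 of the 6 genes in the same rows.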

Other observations

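Limits of 4 and 7 chosen after the values were seen were used to ask how many rows switch as Klk1b1 does. Untreated ESR1KO was left out. Of 45101 rows, 1 was under 4 on all 6 WT and PMSG-treated ESR1KO arrays and over 7 on all 3 PMSG-treated WT arrays, and it was that of Klk1b1. In the reverse direction the upper limit was 6 in place of 7, also chosen after the values were seen. There 1 row was over 6 on the 6 arrays and under 4 on the 3, and it was that of Serpina1b. At a limit of 7 that row would not have passed, since WT replicates 1 and 2 had 6.99 and 6.50. That 1 row passed in either direction thus depends on limits set around these genes. These limits describe these arrays and were not tested.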
